A study of Mus musculus with 14 samples.

Results

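The genes described are 8 laminin chains of the mouse, the alpha chains Lama1, Lama3, Lama4 and Lama5, the beta chains Lamb1, Lamb2 and Lamb3, and the gamma chain Lamc1, chosen by their symbols from a table of raw read counts with 37680 genes in 14 RNA-seq libraries of isolated colon epithelium. All 8 had a row in the table, and 7 of them reached at least 10 counts in at least 3 libraries and could be tested among 15127 such genes. Lama1 had no count in any library. Lama2 and Lamc3 are given beside them.

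Laminins are large cross-shaped glycoproteins of the basement membrane, the thin sheet of matrix on which an epithelium rests. Each molecule is a trimer of an alpha, a beta and a gamma chain, and the chains that a cell makes decide which trimers it can secrete. Lama3 and Lamb3 are chains of the laminin that anchors epithelial cells through hemidesmosomes, Lama5 forms the main laminins beneath mature epithelia, with Lamb1 or Lamb2 and Lamc1, and Lama4 is best known from the basement membranes of blood vessels and of mesenchymal cells. Smad4 is the partner of the receptor-activated Smad proteins in TGF-beta and BMP signalling.

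The libraries came from adult mice of 4 groups, WT and Smad4 KO, each on plain water (4 and 4 libraries, labelled untreated) or given drinking water with DSS at 2.5% for 3 days (3 and 3 libraries). DSS, dextran sulfate sodium, is a sulfated polysaccharide that injures the colonic epithelium. In the Smad4 KO mice (Smad4 f/f, called Smad4 IEC-KO in the study), Smad4 is deleted after tamoxifen by Villin-CreERT2, a Cre recombinase under the villin promoter, which is active in the epithelial cells of the intestine and not in the mesenchyme. The study's methods name the transgene for the mutants and for the controls, and state that mice were matched for age and sex. Epithelium was released from the whole colon with EDTA, so that cells left over from the mesenchyme can be present, and polyA RNA was sequenced. The labels number the replicates without saying which animal each came from, so the p-values measure the spread between these libraries.

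Total counts ran from 12882827 to 26087231 per library, the laminin chains listed held 0.0124% to 0.0215% of them, and mitochondrial genes held 4.05% to 32.8%. Normalised counts of Smad4 averaged 2672 ± 371 for WT on water (SD, n = 4), 3517 ± 123 for WT after DSS (SD, n = 3) and 848 ± 35.9 for Smad4 KO after DSS (SD, n = 3). The replicate 1 library labelled Smad4 KO water had 3164 normalised counts of Smad4, above the mean of WT, while replicates 2 to 4 of that group had 793 ± 126 (SD, n = 3). The study's figure legends give n = 3 for Smad4 KO on water, where the labels give n = 4, and do not say which library was left out. The label was followed throughout, and where the replicate 1 library decides a result the value that leaves it out is printed too. The library names carry letter prefixes, whose meaning the labels do not give. The prefix D marks all 3 Smad4 KO libraries and 2 of 3 WT libraries after DSS, and no Smad4 KO library on water has it, so prefix and DSS cannot be told apart in Smad4 KO. All 10 markers of colon epithelium that were checked passed the filter on low counts, and their sums were 368693 to 382289 in WT and 335534 to 353160 in Smad4 KO after DSS.

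Promoter sequences of 300 bases, from 250 before the transcription start to 50 after it, were held for 4 of the 8 chains (Lama5, Lamb1, Lamb2 and Lamb3) in the RefSeq table used, which is of the build GRCm38.p6 and not of mm9. Lamb3 was the most abundant of the 8 chains, and Lama5 was the alpha chain with the highest mean count per kb of exon. For Lamb2, the call on water depended on the replicate 1 library labelled Smad4 KO water. The promoters of Lamb3, Lama5 and Lamb2 are shown, since Smad4 binds DNA at short Smad motifs. They lie at chr1:193301744-193302043 (plus strand, the first of 2 starts listed for Lamb3), chr2:180225810-180226109 (minus strand) and chr9:108479612-108479911 (plus strand). Capitals mark matches on either strand of the Smad box CAGAC, the GC-rich Smad site GGCGCC, the AP-1 site TGANTCA and the GC box GGGCGG, none of which overlap each other here.
Lamb3: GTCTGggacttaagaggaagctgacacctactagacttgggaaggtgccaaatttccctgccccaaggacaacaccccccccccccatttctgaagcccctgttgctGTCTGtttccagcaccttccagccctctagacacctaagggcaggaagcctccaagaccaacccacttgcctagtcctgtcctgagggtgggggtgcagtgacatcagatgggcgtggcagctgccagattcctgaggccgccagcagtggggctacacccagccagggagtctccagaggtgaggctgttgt
Lama5: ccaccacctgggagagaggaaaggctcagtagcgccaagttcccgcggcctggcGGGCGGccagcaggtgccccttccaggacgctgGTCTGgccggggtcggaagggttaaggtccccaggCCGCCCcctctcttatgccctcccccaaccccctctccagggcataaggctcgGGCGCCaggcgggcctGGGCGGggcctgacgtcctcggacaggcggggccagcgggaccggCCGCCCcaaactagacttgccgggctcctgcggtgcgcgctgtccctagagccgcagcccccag
Lamb2: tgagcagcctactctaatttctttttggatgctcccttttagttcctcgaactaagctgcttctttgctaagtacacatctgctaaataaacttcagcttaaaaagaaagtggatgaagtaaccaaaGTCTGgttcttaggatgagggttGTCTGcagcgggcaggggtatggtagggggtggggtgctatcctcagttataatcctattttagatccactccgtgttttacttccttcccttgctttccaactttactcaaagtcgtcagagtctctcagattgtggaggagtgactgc

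Lamb3 and Lamb2 each held 2 Smad boxes in this window and no match to the other 3 motifs. Lama5 held 1 Smad box, 1 GC-rich Smad site and 4 GC boxes, and Lamb1, not shown, held 1, 1 and 2. A Smad box was found in 49.6% of all 32851 promoters in the table, a GC-rich Smad site in 11.9%, a GC box in 35.7% and an AP-1 site in 7.8%. These matches are a description of letters in the window.

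In the mm9 build, Lama1 (ENSMUSG00000032796) lies on chromosome 17 (68046605 to 68171985), Lama3 (ENSMUSG00000024421) on chromosome 18 (12492533 to 12741522), Lama4 (ENSMUSG00000019846) on chromosome 10 (38685321 to 38829994) and Lama5 (ENSMUSG00000015647) on chromosome 2 (179911078 to 179960564). Lamb1 (ENSMUSG00000002900) lies on chromosome 12 (31950099 to 32014509), Lamb2 (ENSMUSG00000052911) on chromosome 9 (108382193 to 108392861), Lamb3 (ENSMUSG00000026639) on chromosome 1 (195128151 to 195170072) and Lamc1 (ENSMUSG00000026478) on chromosome 1 (155066052 to 155179916). The counts were taken over the annotated exons of each gene, and no exon of the 8 chains overlaps an exon of another annotated gene on either strand.

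Levels of different chains were compared as normalised counts per kb of exon, where normalised counts are the raw counts scaled by the TMM factors of edgeR. Exon lengths of the tested chains ran from 4365 bases for Lamb3 to 12068 for Lama4. How evenly reads covered long and short chains was not examined, which limits the levels per kb. Lamb3 had the highest level with a mean of 530.3 over the 14 libraries, followed by Lamb2 with 62.3, Lamc1 with 24.5, Lama5 with 21.6, Lama3 with 15.5, Lama4 with 7.04 and Lamb1 with 3.06. Lamb3 was above Lamb2 and Lamb2 above Lamc1 in 14 of 14 libraries. Lamc1 was above its neighbour Lama5 in 8 of 14 libraries and Lama5 above Lama3 in 10 of 14, so the order of these neighbours varied between libraries. No test was run across chains. Lama3 was above Lama4 in 13 of 14 and Lama4 above Lamb1 in 12 of 14.

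**Figure D1:**
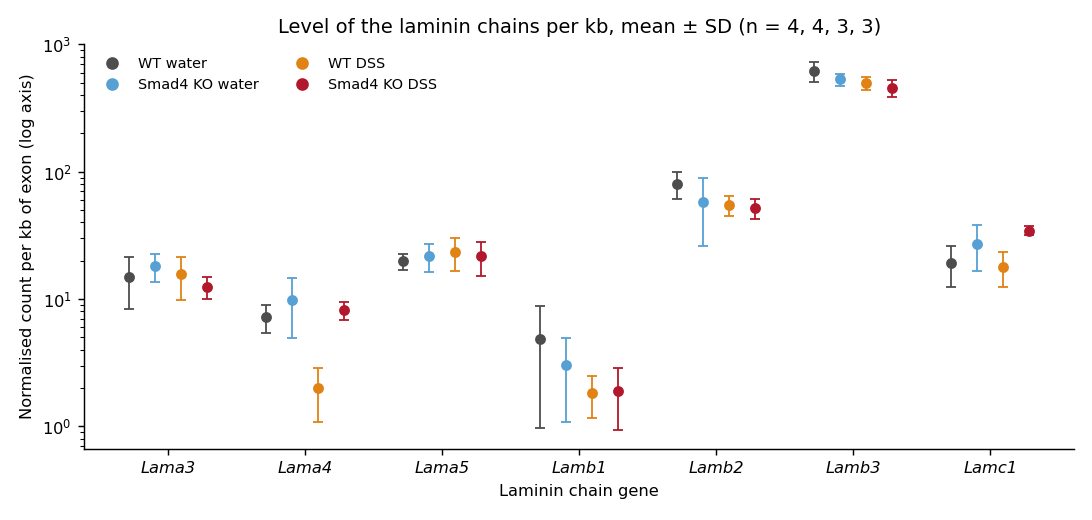
Mean ± SD of the normalised count per kb of exon (log axis) of 7 laminin chains in WT water (n = 4), Smad4 KO water (n = 4), WT DSS (n = 3) and Smad4 KO DSS (n = 3). Lamb3 stands above all others in every group, and Lama4 is lowest in WT after DSS, with 1.99 per kb against 7.19 in WT on water.

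Within the alpha and the beta chains, the level per kb was also taken as a share of the class. Lamb3 made up 89.1% ± 3.3 (SD, n = 14) of the beta chains, Lamb2 10.4% ± 3.0 and Lamb1 0.5% ± 0.4. The alpha chains were more evenly divided, with 49.3% ± 9.0 for Lama5, 35.0% ± 9.1 for Lama3 and 15.6% ± 7.7 for Lama4. In WT after DSS the share of Lama4 was 3.1% to 6.3%, below that in each of the other 11 libraries, which ran from 8.1% to 30.8%. Summed per class, the alpha chains had 44.1 ± 8.28 and the beta chains 596 ± 103 normalised counts per kb (SD, n = 14).

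None of the 7 tested chains passed an adjusted p of 0.05 in edgeR's quasi-likelihood test, fitted on all 14 libraries, in any comparison. Between Smad4 KO and WT after DSS, edgeR called 0.0132% of all 15127 genes (2 genes, with 670 at an unadjusted p below 0.05), and 2 of the 7 chains, Lama4 and Lamc1, had groups that did not overlap in normalised count, against 21.7% of all genes. Between Smad4 KO and WT on water, 8.44% of all genes were called (1276 genes, with 4436 at an unadjusted p below 0.05), and none of the 7 chains had groups without overlap, against 10.4% of all genes. The number of genes called on water changed widely when 1 library was left out, from 4 without WT water replicate 4, 5 without Smad4 KO water replicate 3 and 16 without Smad4 KO water replicate 2 to 4104 without Smad4 KO water replicate 4. For DSS against water in WT, 0.0% of genes were called by edgeR (3174 at an unadjusted p below 0.05), and the groups of 2 of the 7 chains, Lama4 and Lamb2, did not overlap, against 24.4% of all genes. For DSS against water in Smad4 KO, 0.0661% of genes were called (10 genes, with 1271 at an unadjusted p below 0.05), and no chain had groups without overlap, against 8.88% of all genes.

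An unadjusted p below 0.05 was found for Lama4 and Lamc1 after DSS, for Lama4 and Lamb1 under DSS in WT, and for no chain in the other comparisons of groups. In DESeq2, the tool of the study's methods, 1 of the 7 chains was called after DSS and 1 for DSS against water in WT, in both cases Lama4. The difference between the genotypes in the DSS response was called in edgeR for 0.00661% of all genes (1 gene, with 1135 at an unadjusted p below 0.05) and for none of the 7 chains, of which 1, Lama4, had an unadjusted p below 0.05. The median log2 fold change of the 7 chains was -0.08 between the genotypes after DSS and 0.14 on water, beside medians over all tested genes of -0.00058 and -0.0067. It was -0.30 for DSS against water in WT and -0.23 in Smad4 KO, beside -0.01 and -0.02 over all tested genes. The comparisons share libraries, so their values are given side by side only.

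**Figure D2:**
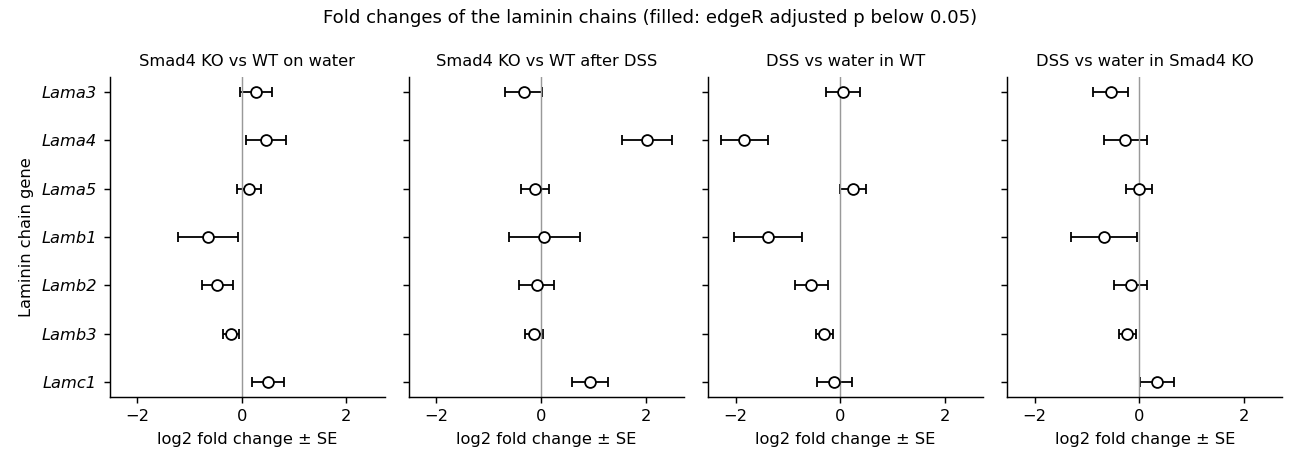
Log2 fold changes with their standard errors from edgeR for 7 laminin chains in 4 comparisons, where a filled point has an adjusted p below 0.05. Lama4 lies at 2.03 for Smad4 KO against WT after DSS and at -1.83 for DSS against water in WT, and no point is filled.

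Of the alpha chains, Lama4, the chain of vessel and mesenchymal laminins, had groups that did not overlap in 2 comparisons. Raw counts of Lama4 were 98, 78, 72 and 41 in WT on water, 142, 150, 160 and 36 in Smad4 KO on water, 25, 15 and 42 in WT after DSS, and 76, 111 and 105 in Smad4 KO after DSS. After scaling, the 3 WT libraries after DSS were the lowest of all 14, below the Smad4 KO libraries after DSS and the WT libraries on water without overlap. The means were 86.7 ± 21.9, 119 ± 58.5, 24.0 ± 10.9 and 98.5 ± 16.5 normalised counts in the same order (SD, n = 4, 4, 3 and 3).

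Between Smad4 KO and WT after DSS, the log2 fold change of Lama4 was 2.03 (standard error 0.47), with an edgeR adjusted p of 0.36. Over 26 alternative settings the log2 fold change stayed between 1.75 and 2.42, and the adjusted p ranged from 0.0091 to 1.00, with 4 of the 26 below 0.05. These were DESeq2 (adjusted p = 0.0091, where 0.337% of all genes were called), the edgeR fit of only the 6 DSS libraries (0.039, with 0.801% called), the edgeR fit of only the 5 DSS libraries with the prefix D (0.035, with 0.321% called) and DESeq2 without the replicate 1 library labelled Smad4 KO water (0.010, with 0.464% called). In edgeR without that library the adjusted p was 0.28.

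Between DSS and water in WT, the log2 fold change of Lama4 was -1.83 (edgeR standard error 0.46, adjusted p = 0.11). The adjusted p over the alternatives ranged from 0.0063 to 0.72, with 4 of 26 below 0.05, and the log2 fold change from -2.22 to -1.54. The 4 were DESeq2 (0.0063, with 5.63% of all genes called), edgeR without the filter on low counts (0.048, with 0.583% called), edgeR without Smad4 KO water replicate 4 (0.034, with 3.57% called) and DESeq2 without the replicate 1 library labelled Smad4 KO water (0.0074, with 5.29% called). WT libraries on water held 6.42% to 32.8% of their counts on mitochondrial genes and those after DSS 4.54% to 6.87%. With the mitochondrial share as a covariate the log2 fold change was -1.90, with an edgeR adjusted p of 0.72, and without the 3 libraries above 20% it was -1.54, with an adjusted p of 0.099. In the libraries with the prefix D alone it was -1.94, with an adjusted p of 0.16.

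In Smad4 KO, the log2 fold change of Lama4 between DSS and water was -0.27 (standard error 0.41, edgeR adjusted p = 0.91), and on water it was 0.46 between Smad4 KO and WT (standard error 0.39, edgeR adjusted p = 0.45). Without the 3 libraries above 20% mitochondrial counts the difference on water was 1.04 (edgeR adjusted p = 0.060). The values in Smad4 KO and on water turned sign with the name prefix as a block in the model, to 0.74 and -0.26. The genotype difference in the DSS response of Lama4 was 1.57 on the log2 scale (standard error 0.60, unadjusted p = 0.020), which did not pass the adjusted threshold in edgeR (adjusted p = 0.64). Over 24 alternatives it ran from 0.99 without the 3 libraries above 20% mitochondrial counts to 2.68 with the name prefix block, with adjusted p-values from 0.17 to 0.92.

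**Figure D3:**
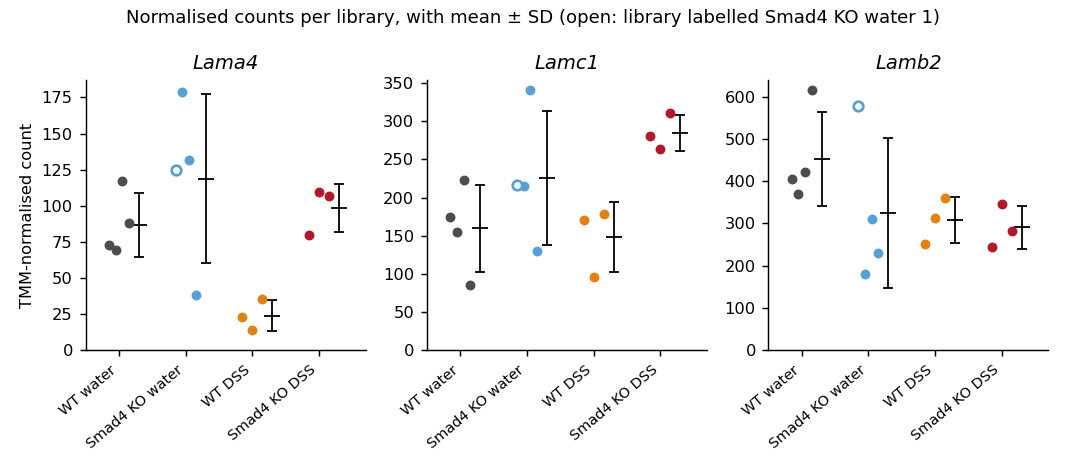
Normalised counts of Lama4, Lamc1 and Lamb2 in each library (points) with the mean ± SD of each group, the open point being the replicate 1 library labelled Smad4 KO water. The 3 WT libraries after DSS lie below 36 for Lama4, and the open point lies at 578 for Lamb2 while the other 3 of its group lie between 180.2 and 311.

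Lama4 is made mainly by mesenchymal and endothelial cells in most tissues, and in bulk libraries fewer cells of a type and less RNA per cell cannot be told apart. Of 8 fibroblast markers, 5 passed the filter. Pdgfra did not, nor did Lum and Dpt, which had at most 3 counts in any library. The study took barely detectable Pdgfra as showing no contamination by pericryptal fibroblasts. The fibroblast markers summed to 282 to 431 normalised counts in Smad4 KO after DSS and 167 to 205 in WT after DSS, without overlap. On water they summed to 214 to 660.3 in Smad4 KO and 134 to 201 in WT, again without overlap, while the Lama4 values of these groups did overlap. The library with the highest fibroblast sum, Smad4 KO water replicate 4, had the lowest Lama4 of its group, with 38.5 normalised counts. Between WT on water and WT after DSS (167 to 205), where Lama4 was separated, the fibroblast sums overlapped. Such a sum follows its most abundant members, and the markers moved in both directions there. Col1a1 had a log2 fold change of -0.85, Col1a2 -0.65, Dcn 0.12 and Pdgfrb 0.28. The median log2 fold change of the 5 tested fibroblast markers in that comparison was -0.65, with Col3a1 at -2.31 (edgeR unadjusted p = 0.027, adjusted p = 0.19). The smooth muscle gene Myh11 had -3.51 there (edgeR adjusted p = 0.14), without overlap, as for 24.4% of all genes.

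Endothelial markers summed to 100.3 to 140 in WT after DSS and 116 to 122 in Smad4 KO after DSS, and of the 8, Tie1, Emcn and Cldn5 had no count in any library. Smooth muscle markers summed to 322 to 384 and 294 to 370 in the same groups, so that both of these sums overlapped where Lama4 did not. Single markers differed from their sums. In Smad4 KO against WT after DSS, Myh11 had a log2 fold change of 2.26, Des -1.55 and Pecam1 -1.07, each without overlap, as for 21.7% of all genes. The other tested markers of these lists, Acta2, Tagln, Esam and Vwf, overlapped, and none of either list was called by edgeR. All 5 tested fibroblast markers had positive log2 fold changes in Smad4 KO against WT on water. There edgeR called Col1a2 (log2 fold change 3.40, adjusted p = 0.021) and Dcn (3.29, adjusted p = 0.034), where 8.44% of all genes were called. The median log2 fold change of the 5 tested fibroblast markers after DSS was 3.02, with none called, and they ran from 0.07 (Pdgfrb) to 4.14 (Col3a1). The part of these cells in the Lama4 result was not tested.

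**Figure D4:**
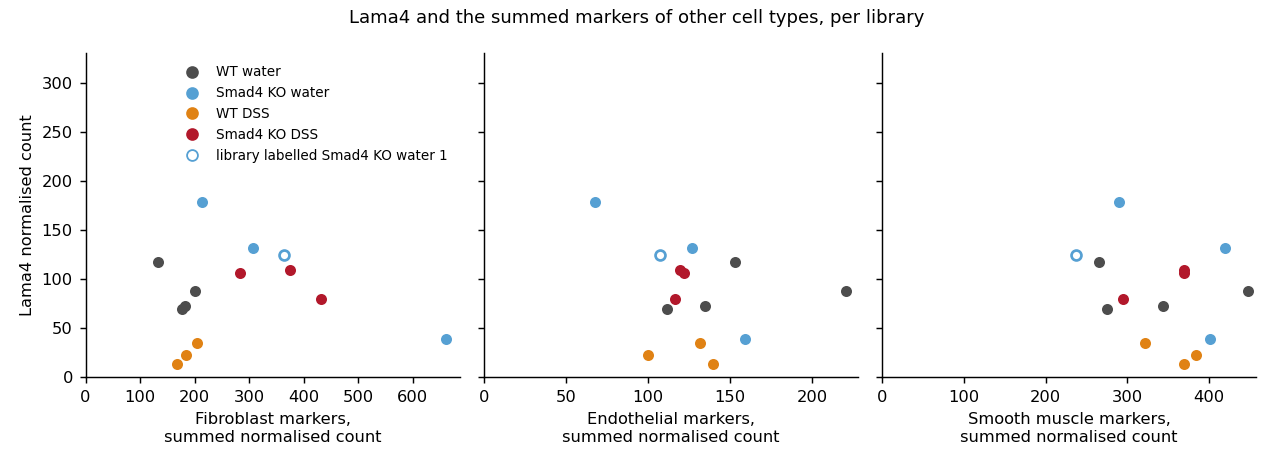
Normalised count of Lama4 in each of 14 libraries against the summed normalised counts of the fibroblast, endothelial and smooth muscle markers, coloured by group, with the replicate 1 library labelled Smad4 KO water as an open point. The WT libraries after DSS lie lowest for Lama4 at fibroblast sums of 167 to 205, which overlap those of WT on water. Each sum follows its most abundant markers.

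Lama3, the alpha chain of the hemidesmosomal laminin, showed no separation of groups. Raw counts of Lama3 were 216, 150, 154 and 40 in WT on water, 204, 116, 306 and 181 in Smad4 KO on water, 254, 133 and 164 in WT after DSS, and 106, 163 and 119 in Smad4 KO after DSS. Its normalised counts averaged 157 ± 69.5, 191 ± 47.0, 165 ± 60.5 and 131 ± 26.3 (SD, n = 4, 4, 3 and 3), and the groups overlapped in every comparison. The log2 fold changes of Lama3 between groups ran from -0.55 for DSS against water in Smad4 KO to 0.28 for Smad4 KO against WT on water, with edgeR adjusted p-values of 0.57 or more.

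Lama5, the alpha chain of the laminins beneath mature epithelium, had groups that overlapped in every comparison. Raw counts of Lama5 were 245, 273, 159 and 103 in WT on water, 384, 193, 268 and 190 in Smad4 KO on water, 205, 292 and 411 in WT after DSS, and 199, 337 and 199 in Smad4 KO after DSS. The group means of its normalised counts lay between 226 ± 33.6 (SD, n = 4) in WT on water and 267 ± 78.9 (SD, n = 3) in WT after DSS. Its log2 fold changes lay between -0.11 and 0.25, with edgeR adjusted p-values of 0.60 or more and standard errors of 0.23 to 0.27.

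Lama1, a chain of embryonic basement membranes, had a raw count of 0 in all 14 libraries. A count of 0 allows up to 3 counts in a library, of totals of 12882827 to 26087231, so a level of Lama1 below that was not detectable at this depth. Lama2, the alpha chain of muscle and nerve, had 1 count in WT DSS replicate 3, 2 counts in Smad4 KO DSS replicate 1 and none elsewhere, and was not tested.

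Among the beta chains, Lamb3, the partner of Lama3 in the hemidesmosomal laminin, was the most abundant of the 8 chains in every library. Raw counts of Lamb3 were 3107, 3476, 1894 and 1037 in WT on water, 2779, 1692, 2680 and 2431 in Smad4 KO on water, 2272, 2135 and 2928 in WT after DSS, and 1700, 2356 and 1795 in Smad4 KO after DSS. Normalised, it averaged 2674 ± 478, 2319 ± 258, 2170.4 ± 267 and 1975 ± 301 (SD, n = 4, 4, 3 and 3), and the groups overlapped in every comparison. Its log2 fold changes were small, from -0.30 for DSS against water in WT (standard error 0.16, edgeR adjusted p = 0.29) to -0.14 for Smad4 KO against WT after DSS (standard error 0.17, edgeR adjusted p = 0.999), and none passed the test.

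**Figure D5:**
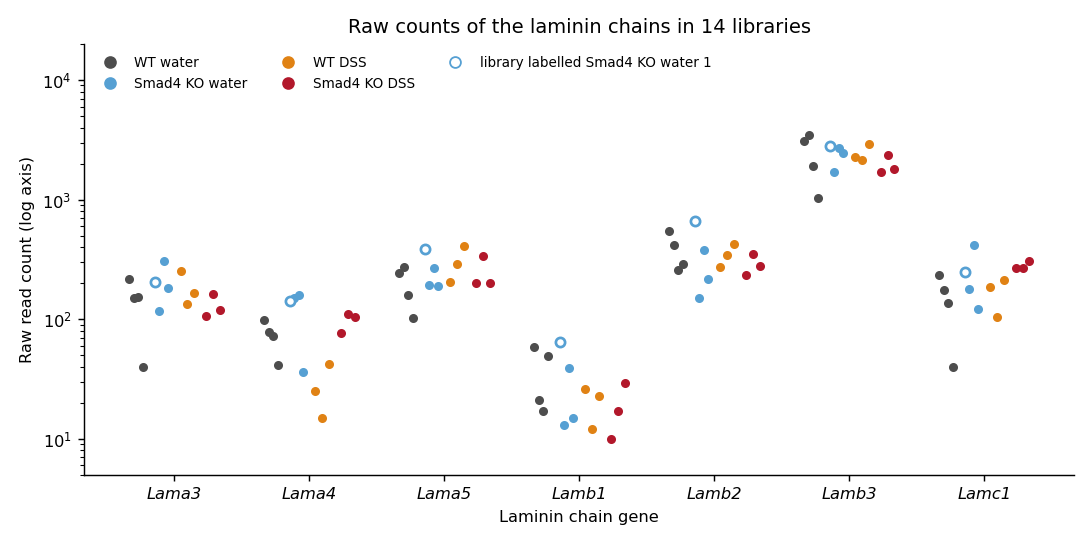
Raw read counts (log axis) of 7 laminin chains in each of the 14 libraries, coloured by group, with the replicate 1 library labelled Smad4 KO water as an open point. Lamb3 runs from 1037 to 3476 counts, and Lamb1 from 10 to 64 counts, the lowest of the chains that were tested.

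Lamb2, which replaces Lamb1 in part of the epithelial and synaptic laminins, was the second beta chain. Raw counts of Lamb2 were 547, 416, 258 and 288 in WT on water, 656, 151, 378 and 215 in Smad4 KO on water, 274, 343 and 426 in WT after DSS, and 234, 351 and 278 in Smad4 KO after DSS. The replicate 1 library labelled Smad4 KO water was the highest of its group, and all WT libraries on water lay above those after DSS once scaled. On water, Lamb2 averaged 453 ± 111 normalised counts for WT and 325 ± 177 for Smad4 KO (SD, n = 4 and 4). The log2 fold change was -0.47, with a standard error of 0.29 and an edgeR adjusted p of 0.29.

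Without the replicate 1 library labelled Smad4 KO water, Lamb2 fell by 0.90 on the log2 scale in Smad4 KO against WT on water, with an edgeR adjusted p of 0.037, where 7.66% of all genes were called. The remaining 3 libraries had 240.5 ± 66.2 (SD, n = 3) normalised counts and did not overlap with WT. In DESeq2 without that library the adjusted p was 0.0050, where 16.5% of all genes were called, and in the edgeR model of those 7 water libraries alone it was 0.18. Over all 26 alternatives the adjusted p of Lamb2 on water ran from 0.0050 to 0.85, with 2 of the 26 below 0.05. With the other libraries left out singly, the log2 fold change of Lamb2 on water was closest to 0 without Smad4 KO water replicate 2 (-0.27), WT water replicate 4 (-0.29) and Smad4 KO water replicate 4 (-0.32), and it was -0.11 without the 3 libraries above 20% mitochondrial counts, a fit that keeps the replicate 1 library labelled Smad4 KO water. For DSS against water in WT, the log2 fold change of Lamb2 was -0.55 (standard error 0.32, edgeR adjusted p = 0.33), and after DSS the genotypes differed by -0.08 (standard error 0.34), with means of 308 ± 53.7 in WT and 291 ± 51.0 in Smad4 KO (SD, n = 3 and 3).

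Lamb1, the beta chain of the widespread laminins with Lamc1, was close to the lower limit of these libraries. Raw counts of Lamb1 were 58, 21, 17 and 49 in WT on water, 64, 13, 39 and 15 in Smad4 KO on water, 26, 12 and 23 in WT after DSS, and 10, 17 and 29 in Smad4 KO after DSS. Its normalised group means ran from 18.1 ± 6.57 in WT after DSS (SD, n = 3) to 48.6 ± 38.9 in WT on water (SD, n = 4), and the groups overlapped in every comparison. The lowest unadjusted p of Lamb1 was 0.048, for DSS against water in WT, with a log2 fold change of -1.39 (edgeR standard error 0.65, adjusted p = 0.23), which was -0.76 without the 3 libraries above 20% mitochondrial counts.

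Lamc1, the gamma chain of most laminins, was separated between the genotypes after DSS. Raw counts of Lamc1 were 235, 175, 137 and 40 in WT on water, 246, 180, 415 and 121 in Smad4 KO on water, 186, 105 and 212 in WT after DSS, and 268, 268 and 306 in Smad4 KO after DSS. The 3 Smad4 KO libraries after DSS lay close together and above all 3 WT libraries after DSS, while on water the genotypes overlapped. After DSS, Lamc1 averaged 285 ± 23.7 normalised counts for Smad4 KO and 149 ± 45.7 for WT (SD, n = 3 and 3), and the log2 fold change was 0.94 (standard error 0.35, unadjusted p = 0.016, edgeR adjusted p = 0.89). The fibroblast sums given for Lama4 also lay apart between these groups, and their part in the Lamc1 value was not tested.

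The log2 fold change of Lamc1 after DSS kept its sign under all 26 alternatives, between 0.71 and 1.10, but the adjusted p was never below 0.0997, its value in the edgeR fit of only the 6 DSS libraries. On water the log2 fold change between Smad4 KO and WT was 0.49 (standard error 0.30, edgeR adjusted p = 0.29). Between DSS and water it was -0.11 in WT (standard error 0.33) and 0.33 in Smad4 KO (standard error 0.32), with edgeR adjusted p-values of 0.88 and 0.83.

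As a description, the ratio of Lamb3 to Lama3, each per kb, ran from 21.1 to 62.6 over the 14 libraries, with overlap between the genotypes in both conditions. The ratio of Lama3 to Lama4 was 4.47 to 11.6 in WT after DSS and 1.30 to 1.68 in Smad4 KO after DSS, and on water it was 1.12 to 2.52 in WT and 0.886 to 5.76 in Smad4 KO, the last overlapping WT after DSS. Lamc3, a gamma chain of neural tissue, had 0 to 4 counts and was not tested.

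Receptors and matrix partners of the laminins were grouped in lists by role. Of 12 receptors, among them the integrins that bind laminin, dystroglycan (Dag1) and Bcam, all 12 were tested and 3 rose in Smad4 KO against WT on water in edgeR, where 8.44% of all genes were called, with none falling and a median log2 fold change of 0.06. Itga2, the collagen- and laminin-binding alpha subunit, rose by 1.96 on the log2 scale (standard error 0.39, edgeR adjusted p = 0.022), from 85.8 ± 34.9 (SD, n = 4) to 344 ± 200.1 (SD, n = 4) normalised counts. Itgb1, the common beta subunit, rose by 0.61 (standard error 0.18, adjusted p = 0.049), and Itga6, the alpha subunit of the hemidesmosome, by 0.56 (standard error 0.16, adjusted p = 0.044). The groups overlapped for all 3 genes, and the calls of Itga2, Itgb1 and Itga6 were made in 20, 10 and 11 of 26 alternatives. In edgeR without the replicate 1 library labelled Smad4 KO water, Itga2 alone was called among the receptors, where 7.66% of all genes were called. DESeq2 without that library called Itga2, Itga6 (adjusted p = 0.024) and Itgb1 (adjusted p = 0.025), where 16.5% of all genes were called. DESeq2 on all libraries called 5 of the 12, adding Dag1 and Itga1, where it called 17.6% of all genes. No receptor was called in the other comparisons by edgeR on all 14 libraries with the filter on low counts. An unadjusted p below 0.05 was found for 1 of 12 after DSS, 5 for DSS against water in WT and 2 in Smad4 KO. For DSS against water in WT, Itga2 rose by 1.96 (standard error 0.41, edgeR adjusted p = 0.11), without overlap. Groups also did not overlap in that comparison for Dag1, Itgb1, Itga6 and Itga3, which were higher, and for Bcam and Sdc4, which were lower. The share over all genes was 24.4%. There, 6 of 26 alternatives called Itga2 and 1 of 26 called Dag1. DESeq2 called 1 of the 12 there, Itga2, where 5.63% of all genes were called.

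After DSS the receptor with the highest log2 fold change in Smad4 KO against WT was again Itga2, with 0.93 (standard error 0.42) and 652 ± 47.9 against 343 ± 45.2 normalised counts (SD, n = 3 and 3), without overlap. The edgeR adjusted p was 0.999, and 2 of 26 alternatives called it. Itgb1 and Bcam, which were higher, and Sdc4, which was lower, also had groups without overlap there, against 21.7% of all genes. Of the 6 hemidesmosome genes, all tested, Itga6 was the only one called on water, and Itgb4, the beta subunit that pairs with it, had a log2 fold change of -0.20 after DSS (standard error 0.17). Dst and Col17a1, which anchor and span the hemidesmosome, had the highest log2 fold changes for DSS against water in WT with 0.53 (standard error 0.17) and 1.48 (standard error 0.76), neither past the test (edgeR adjusted p = 0.12 and 0.27). DESeq2 called Dst there (adjusted p = 0.049), where 5.63% of all genes were called. So did edgeR without Smad4 KO water replicate 4 (adjusted p = 0.045), where 3.57% were called.

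Of 20 basement membrane partners (nidogens, perlecan, agrin, collagen IV chains and others), 13 were tested and none was called by edgeR in the model of 4 groups in any comparison, with 4 at an unadjusted p below 0.05 after DSS, 3 on water, 1 for DSS against water in WT and 3 in Smad4 KO. On water, Fbln1, a fibulin of the matrix, was called by DESeq2 as 1 of the 13, where DESeq2 called 17.6% of all genes, and by edgeR without the replicate 1 library labelled Smad4 KO water (log2 fold change 0.77, adjusted p = 0.027). The median log2 fold change of the 13 was 0.42 after DSS and 0.15 on water. Sparc, a matricellular protein, and Col4a2, a collagen IV chain, had the highest log2 fold changes after DSS, with 3.00 (standard error 1.27) and 1.49 (standard error 0.56), and the lowest were Pxdn, which crosslinks collagen IV, with -1.64 (standard error 0.79) and Col18a1 with -0.76 (standard error 0.59). All 4 had groups that did not overlap, as did Hspg2 (0.71, standard error 0.20) and Fbln1 (0.55, standard error 0.24), against 21.7% of all genes. For DSS against water in Smad4 KO, Pxdn had a log2 fold change of -1.73 (edgeR adjusted p = 0.57). It was called there by DESeq2 only without the replicate 1 library labelled Smad4 KO water (-2.13, adjusted p = 0.014), where 91 of 15074 genes were called. Sparc was near the floor in WT after DSS, with 2.32 ± 1.70 normalised counts against 19.6 ± 0.82 in Smad4 KO (SD, n = 3 and 3). In the edgeR fit of only the 6 DSS libraries, where 0.801% of all genes were called, Sparc (adjusted p = 0.040) and Col4a2 (adjusted p = 0.049) were called, and Sparc also in that of the 5 with the prefix D (adjusted p = 0.044). Sparc and collagen IV are also made by mesenchymal cells, and the part of the higher fibroblast sums in their values was not tested. Nid1, the link between laminin and collagen IV, averaged 20.6 ± 4.32 normalised counts for Smad4 KO and 6.32 ± 6.36 for WT on water (SD, n = 4 and 4), a log2 fold change of 1.58 (edgeR standard error 0.68, adjusted p = 0.14).

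Of 8 proteases that cleave laminins or their propeptides, 4 passed the filter and none was called by edgeR in the model of 4 groups, with 1 at an unadjusted p below 0.05 after DSS, 1 on water and 0 for DSS against water in either genotype. DESeq2 called 1 of the 4, Mmp7, on water, where it called 17.6% of all genes, and edgeR called it there with the name prefix as a block (adjusted p = 0.010), where 2018 genes were called. Mmp7, matrilysin, had the highest log2 fold change of them after DSS, with 1.20 (standard error 0.53). It had 297 ± 142 normalised counts for Smad4 KO against 129.8 ± 6.52 for WT (SD, n = 3 and 3), without overlap, as for 21.7% of all genes. Bmp1, a procollagen and laminin processing enzyme, differed by 0.74 on the log2 scale (standard error 0.65), with overlap.

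The genes most like each chain over the 14 libraries were ranked by Pearson correlation of log2 normalised counts among 11566 genes with a mean of at least 50 raw counts, as a description across libraries that share their groups and differ in depth. For Lama4 they were Lgals12 (r = 0.88), Zfp318 (r = 0.85) and Bcl2 (r = 0.84). For Lamc1 they were Uhrf1bp1 (r = 0.93), Fmnl2 (r = 0.90) and Pcdh18 (r = 0.89). Lamb3 was most like Mta1 (r = 0.84), Lamb2 most like Dtnb (r = 0.88), Lama5 most like Srpk2 (r = 0.82) and Lama3 most like Ccl20 (r = 0.85), an epithelial chemokine. None of these was a laminin chain.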

How the data were processed

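PolyA RNA-seq reads of 14 libraries of mouse colon epithelium were aligned to mm9 with HISAT2 and counted per gene with featureCounts by the authors, who deposited raw counts. The strand setting is not given in the sources used here. From these counts, a gene was kept (15127 of 37680) if 3 or more libraries had 10 or more counts of it, scaled by TMM and tested, two-sided, in 1 model of 4 groups with edgeR 4.0.16 (quasi-likelihood test) in R 4.3.3, with Benjamini-Hochberg adjustment over all tested genes and a threshold of 0.05. This differs from the study's pairwise DESeq2, and DESeq2 1.42.0 and models of the compared groups alone were run as alternatives. Normalised counts are raw counts divided by the effective library size and multiplied by its mean, and lengths are the union of annotated exons (GENCODE M1). The scripts were tested on simulated data.

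The laminin chains and all gene lists were chosen with earlier results of these data known, and 1 listed gene is not reported here. Genes named are the laminin chains, the genes of each related list that were called or had the highest or lowest log2 fold changes, and up to 3 genes most like each chain. Groups came from the labels. Same-numbered libraries were not treated as pairs in the main model, since the labels do not say what the numbers mean. Deviations from the group means were correlated above 0.1 in 2 of 19 same-numbered pairs. The highest was r = 0.32, for replicate 4 of WT and of Smad4 KO on water. These libraries share the name prefix MP and had 32.8% and 21.4% mitochondrial counts. Whether such pairs share an origin was not tested. Other alternatives were RLE and upper quartile factors, no filter, edgeR's own filter, blocks for replicate number and name prefix, the mitochondrial share as covariate and leaving out each library. Chosen after seeing the data were the models without the 3 libraries above 20% mitochondrial counts, with prefix D libraries alone, and DESeq2 without the replicate 1 library labelled Smad4 KO water. The limit of 3 counts for a count of 0 covers counting error only.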

Additional observations from a re-analysis of the deposited data

How the results depend on the processing

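Counts of called laminin chains, 0 of 7 in every comparison, became 1 after DSS (Lama4) in DESeq2, in the 2 groups alone, in prefix D libraries alone and in DESeq2 without the replicate 1 library labelled Smad4 KO water. For DSS against water in WT the count became 1 (Lama4) in both DESeq2 runs and without the filter on low counts, and on water 1 (Lamb2) in DESeq2 without that library. Leaving out single libraries gave 0 to 1 on water, the 1 being without Smad4 KO water replicate 1, and 0 to 1 for DSS against water in WT, the 1 being without Smad4 KO water replicate 4. Of the log2 fold changes, 379 kept their direction and side of the threshold, 8 passed it and 19 turned sign, none of them called. When single libraries were left out these numbers were 464, 2 and 24. The cause was not tested.

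Without the replicate 1 library labelled Smad4 KO water, the values in the 2 groups alone and in DESeq2 were 0.18 and 0.18 for Lama5 and 0.27 and 0.27 for Lamb2 under DSS in Smad4 KO, and -0.047 and -0.044 for Lama5 on water. The name prefixes ZH and MS each mark a single library, WT DSS replicate 3 and Smad4 KO water replicate 3. A block for the prefix fits these libraries exactly, so they add nothing to its log2 fold changes. With the name prefix block, log2 fold changes under DSS in Smad4 KO were 0.74 (Lama4), 0.20 (Lama5), 0.30 (Lamb1) and 0.29 (Lamb2). That of Lama4 on water was -0.26, those after DSS were 0.12 (Lama5) and 0.042 (Lamb2), and the genotype difference in the DSS response of Lama5 was 0.090. In prefix D libraries alone, a fit that also leaves out WT DSS replicate 3, log2 fold changes were 0.12 (Lama5) and 0.046 (Lamb2) after DSS. Without the filter the value was 0.015 for Lama5 under DSS in Smad4 KO. Without the 3 libraries above 20% mitochondrial counts, Lamb1 had 0.18 on water and -0.11 for the genotype difference in the DSS response.

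Leaving out single libraries gave ranges after DSS of -0.51 to 0.011 for Lama3 (turned without WT DSS replicate 1), -0.38 to 0.12 for Lama5, -0.41 to 0.35 for Lamb1 and -0.22 to 0.042 for Lamb2. On water they were -0.048 to 0.24 for Lama5 and -1.15 to 0.013 for Lamb1 (turned without WT water replicate 4). For DSS against water they were -0.28 to 0.37 for Lama3 and -0.31 to 0.12 for Lamc1 in WT, and -0.27 to 0.18 for Lama5 and -0.36 to 0.27 for Lamb2 in Smad4 KO. The genotype difference in the DSS response of Lamb3 ran from -0.062 to 0.17.

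With the replicate block, 0 laminin chains were called in any comparison, and its calls over all genes on water were 2977 against 1276, with 6 against 10 for DSS against water in Smad4 KO. Calls over all genes on water were 2659 in DESeq2, 1 in the 2 groups alone and 8 with the mitochondrial share as covariate, and 4 to 4104 when single libraries were left out.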
